A study of Homo sapiens with 2 samples.

Results

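The cells described here are the 595 persister cells with the highest summed level of 5 stress genes, DDIT3, CHAC1, TRIB3, SESN2 and ASNS, out of 5942 persister cells that passed a filter and 17895 barcodes in the 2 libraries of the study. They come from A375, a human melanoma cell line. The persister library held A375 cells left after 15 days with cytotoxic T lymphocytes (CTLs) raised against NY-ESO-1 (an antigen of testis and tumours). The culture had 7.5 ng/mL interleukin 2, and new CTLs were supplied every 3 days. The parental library held A375 cells labelled untreated, and the labels do not say whether they received interleukin 2. Each group was 1 library of single-cell RNA counts, so no difference here has a replicate check and no test was run. Barcodes were kept with at least 5000 UMIs (distinct RNA molecules) and at most 20% of them from mitochondrial genes. The score of a cell was the sum of its UMIs of the 5 genes per 10000 UMIs, and the top 10% of kept persister cells, called high-scoring cells below, were set against the other 5347 persister cells, with 9094 parental cells under the same filter as a further level.

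The integrated stress response starts when kinases that sense amino acid shortage, misfolded protein, haem shortage or double-stranded RNA phosphorylate the translation factor eIF2. General translation then falls, while the mRNA of the transcription factor ATF4 is translated more. ATF4 and its partners switch on genes for amino acid supply and redox balance and, under lasting stress, DDIT3 (CHOP), a transcription factor linked to cell death. TRIB3 is a pseudokinase that restrains AKT and ATF4, CHAC1 degrades glutathione, SESN2 restrains mTORC1, and ASNS makes asparagine.

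The score had no gap at the limit that set these cells apart. The limit was 13.2, the highest score outside it was 13.17 and the lowest score inside it was 13.19. Within 5% of the limit lay 343 persister cells, of which 158 were inside and 185 outside. The median score was 14.8 in high-scoring cells, 7.83 in the other persister cells and 0 in parental cells. The set was cut from the upper end of the range of scores. A limit at a fixed share of the cells is likely to have close scores on both sides, with or without a separate class. Counting error at the few UMIs per cell given below could also blur such a class, so the scores cannot decide whether it exists. Of all kept persister cells, 92.9% scored above the parental 99th percentile of 3.80. A median of 16 UMIs of the 5 genes stood behind the score of a high-scoring cell and a median of 9 behind that of another persister cell.

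**Figure D1:**
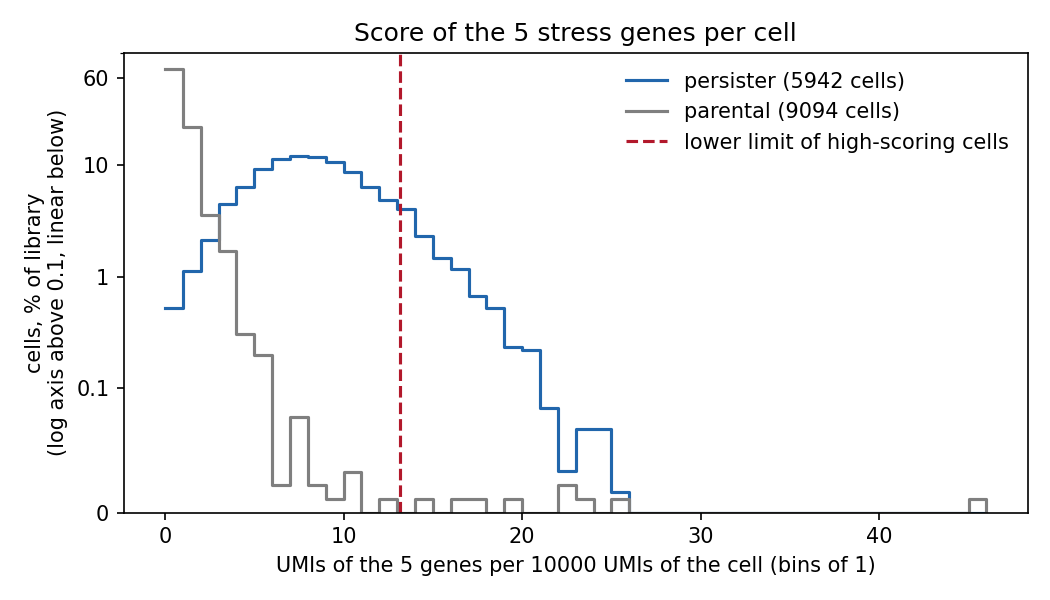
Distribution of the 5-gene score per cell (horizontal axis, UMIs per 10000 UMIs of the cell) as a share of kept cells of each library (vertical axis, percent, logarithmic above 0.1). The persister curve falls smoothly through the dashed limit of 13.2, and 9 parental cells lie above that limit.

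The promoters of the 5 scored genes are shown because they carry, or lack, the letters that ATF4 and its partners are known to bind, the C/EBP-ATF response element. Each runs 5' to 3' on the gene's strand from 250 bases before to 50 bases after the RefSeq start on GRCh38.p14. The DDIT3 promoter is chr12:57520465-57520764 on the minus strand, CHAC1 is chr15:40953221-40953520 on the plus strand, TRIB3 is chr20:381045-381344 on the plus strand, SESN2 is chr1:28259268-28259567 on the plus strand and ASNS is chr7:97872359-97872658 on the minus strand. Capitals mark matches to TGATGNAA on either strand.
DDIT3: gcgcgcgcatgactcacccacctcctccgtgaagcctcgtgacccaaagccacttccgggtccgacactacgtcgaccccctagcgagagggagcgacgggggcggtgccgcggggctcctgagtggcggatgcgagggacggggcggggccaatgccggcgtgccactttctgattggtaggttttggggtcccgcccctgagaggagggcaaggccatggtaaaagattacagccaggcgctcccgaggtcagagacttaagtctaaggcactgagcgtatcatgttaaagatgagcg
CHAC1: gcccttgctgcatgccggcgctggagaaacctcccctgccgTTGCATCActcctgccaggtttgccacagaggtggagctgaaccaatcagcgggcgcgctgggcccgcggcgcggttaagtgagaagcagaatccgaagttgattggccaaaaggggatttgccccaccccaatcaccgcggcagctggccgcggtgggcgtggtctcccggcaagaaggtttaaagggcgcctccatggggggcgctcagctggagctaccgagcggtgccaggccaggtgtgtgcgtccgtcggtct
TRIB3: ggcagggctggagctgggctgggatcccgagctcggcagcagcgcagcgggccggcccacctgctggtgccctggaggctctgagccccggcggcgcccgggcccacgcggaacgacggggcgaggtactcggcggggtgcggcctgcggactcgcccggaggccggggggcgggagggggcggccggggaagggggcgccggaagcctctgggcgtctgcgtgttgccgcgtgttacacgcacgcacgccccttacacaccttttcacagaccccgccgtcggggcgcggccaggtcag
SESN2: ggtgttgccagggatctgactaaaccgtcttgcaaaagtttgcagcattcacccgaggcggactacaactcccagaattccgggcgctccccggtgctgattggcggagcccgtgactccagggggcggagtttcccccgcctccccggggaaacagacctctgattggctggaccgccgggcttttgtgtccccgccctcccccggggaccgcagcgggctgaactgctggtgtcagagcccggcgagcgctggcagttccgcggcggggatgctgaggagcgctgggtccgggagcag
ASNS: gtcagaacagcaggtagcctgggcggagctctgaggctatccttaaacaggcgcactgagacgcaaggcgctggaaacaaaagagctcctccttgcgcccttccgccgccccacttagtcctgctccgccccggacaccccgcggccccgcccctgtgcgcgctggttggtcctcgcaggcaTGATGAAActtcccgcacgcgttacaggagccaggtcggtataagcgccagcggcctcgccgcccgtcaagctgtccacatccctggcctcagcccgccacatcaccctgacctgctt

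Of these 5 promoters, 2 held a match to TGATGNAA. In CHAC1 it read TTGCATCA, the other strand of the motif, and began 209 bases before the start. In ASNS it read TGATGAAA and began 68 bases before the start. The windows of DDIT3, TRIB3 and SESN2 held no match, which says nothing of sites outside these windows. Among the 6275 measured genes with a promoter in the table, 1.77% held the motif. DDIT3 also held 1 match to the AP-1 motif TGANTCA, 241 bases before the start, and AP-1 matches were found in 4.21% of the same 6275 promoters. No match to the CRE motif TGACGTCA was found in the 5 windows, against 4.03% of the 6275. For the genes called higher or lower below, under 80% had a promoter in the table (36 of 49 and 66 of 92), so a comparison of motif shares is void for them. It is void too for the wider list of stress-response targets (59 of 76).

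The 5 scored genes were 1.70- to 2.12-fold higher in high-scoring than in other persister cells, which the rule fixes and which is given only as a description. Levels are UMIs summed over cells per 1000000 UMIs (CPM), and intervals are 95% exact counting intervals, which cover counting error only. DDIT3 stood at 812.5 CPM in high-scoring cells, 382.5 CPM in other persister cells and 18.8 CPM in parental cells. ASNS was at 281 CPM in high-scoring, 149 CPM in other persister and 15.5 CPM in parental cells. TRIB3 was at 205 CPM in high-scoring, 117 CPM in other persister and 18.0 CPM in parental cells. All 5 genes were far above the parental level in the other persister cells too, so the step at the limit was smaller than the step between libraries. SESN2 was at 141 CPM in high-scoring, 82.5 CPM in other persister and 6.20 CPM in parental cells. CHAC1 was at 97.6 CPM in high-scoring, 56.3 CPM in other persister and 1.08 CPM in parental cells. DDIT3 lies on chromosome 12 from 57516588 to 57521737 (GRCh38, GENCODE 29) and shares 2769 bases on the same strand with AC022506.1, so part of its reads may have been lost or shared in counting.

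DDIT3 dominated the score. It supplied 52.9% of the high-scoring cells' UMIs of the 5 genes and 48.6% of those of the other persister cells. It was the gene with the most UMIs in 520 of the 595 cells, ASNS led in 39, TRIB3 in 6, SESN2 in 3 and CHAC1 in 1, and 26 cells had a tie. All 5 genes were detected together in 250 of the high-scoring cells (42.0%) and in 21.8% of the other persister cells. Choosing cells for more UMIs of these genes favours such joint detection, so the shares are only a description. At the other end, 2 high-scoring cells had UMIs of only 1 of the 5 genes.

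Much of the gap in the 5 genes did not carry over to counts that the choice had not used. When the UMIs of each cell were split at random into 2 equal parts and cells were chosen by 1 part, the summed level of the 5 genes in the chosen cells was 2.25-fold that of the rest in the part used to choose. In the other part the same cells stood at 1094 CPM against 827.6 CPM in the rest, a ratio of 1.32. Only 21.3% of the cells chosen by 1 part were chosen by the other, and the scores of the parts had a Spearman correlation of 0.24 over 5942 cells, which share a library. In the part not used, DDIT3 was at 589.1 CPM in chosen cells and 403.7 CPM in the rest (1.46-fold, 1.39 to 1.53). ASNS was at 189.4 CPM in chosen cells and 156.0 CPM in the rest (1.21-fold, 1.12 to 1.32). TRIB3 was 1.20-fold (1.10 to 1.32), SESN2 1.18-fold (1.051 to 1.32) and CHAC1 1.13-fold higher in chosen cells, with an interval of 0.981 to 1.29 for CHAC1 that includes 1.

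The counts of the 5 genes also went with each other only weakly from cell to cell. They rested on a median of 16 UMIs of all 5 genes in a high-scoring cell and 9 in another persister cell. Counting error at such depth pulls the ratios below towards 1 and lowers the overlaps. They therefore do not measure how closely the levels of the genes themselves go together. When cells were chosen by 4 of the genes and the remaining gene was read, DDIT3 was at 485.0 CPM in chosen cells and 413.5 CPM in the rest (1.17-fold, 1.13 to 1.21). TRIB3 was 1.16-fold, SESN2 1.13-fold, ASNS 1.13-fold and CHAC1 1.11-fold higher in the cells chosen by the other 4. Cells chosen by DDIT3 alone overlapped the high-scoring set in 338 cells (56.8% of each set). The overlap was 205 cells for ASNS alone, 175 for TRIB3, 139 for CHAC1 and 132 for SESN2.

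**Figure D2:**
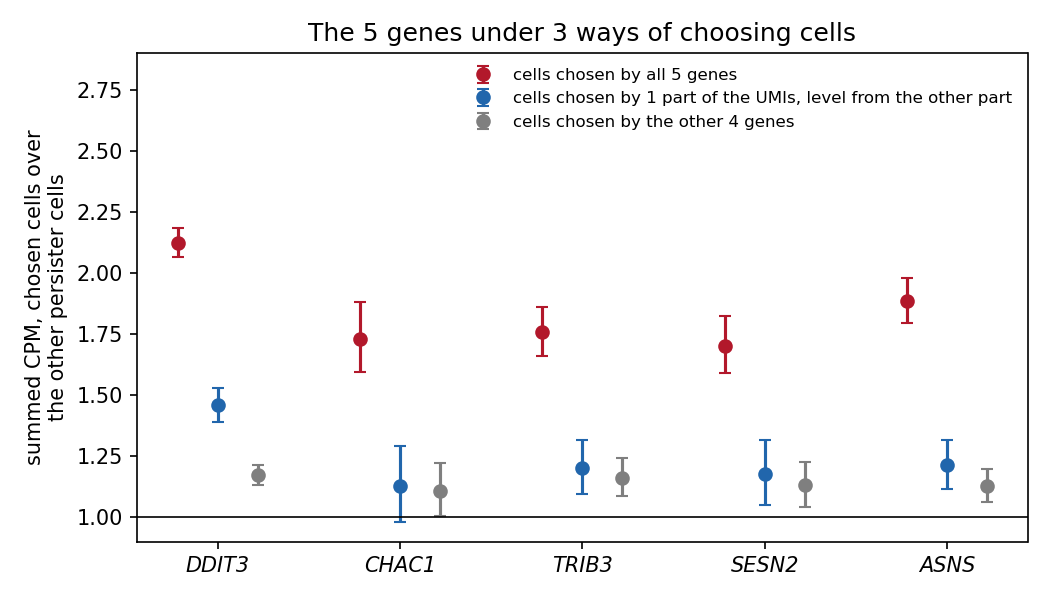
Ratio of summed CPM between 595 chosen persister cells and the other persister cells (vertical axis) for the 5 scored genes, with 95% counting intervals. The ratios lie between 1.70 and 2.12 in cells chosen by all 5 genes, and between 1.11 and 1.46 in the counts or genes that the choice did not use.

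Few genes outside the 5 differed by 1.5-fold or more between high-scoring and other persister cells. A gene was called measured at 10 CPM or more in either set of persister cells, and higher or lower at a CPM ratio of at least 1.5 in either direction. A gene near 10 CPM could thus enter only through the set where it was higher, which favours calls among such genes. Genes of this kind below include SLC7A6, SOCS1, FGFBP2, MYC, UNG and ANKRD1. The limit of 20 CPM used below to rank genes was also met in either set, which favours such genes in the ranking. LPAR6, NUAK2, GAP43, KLHDC7B, ADGRG6 and APOD reached it only in high-scoring cells. ARHGAP29, ESM1, CAV1, IGFBP4, KRT80, TPST1 and BDNF reached it only in the other persister cells. In high-scoring cells 49 of the 7587 measured genes (0.646%) were called higher, and 92 (1.21%) were called lower. At least 2-fold higher were 3 genes (0.0395%), LPAR6, FGFBP2 and GDF15, and at least 2-fold lower were 27 (0.356%). The median log2 difference of all measured genes was 0.00077 (log2 of CPM plus 1). Of the 7587, 3811 had a ratio above 1, the share beside which such counts for the lists below stand.

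A list of 93 further stress-response genes (its transcription factors, ATF4 and CHOP targets, amino acid transporters, enzymes of amino acid and one-carbon synthesis and tRNA synthetases) had 76 measured members. Of these, 1 (1.32%), GDF15, was at least 1.5-fold higher in high-scoring cells, against 0.646% of all measured genes, and 1, the amino acid transporter SLC7A6, was at least 1.5-fold lower. SLC7A6 reached 10 CPM only in the other persister cells. Ratios of 50 of the 76 were above 1, the intervals of 31 lay wholly above 1 and those of 7 wholly below, against 1091 above and 1203 below among all 7587. The median log2 difference of the 76 was 0.055. The summed level of the 93 genes was 14660 CPM in high-scoring cells, 13390 CPM in other persister cells and 5534 CPM in parental cells, 1.10-fold higher (1.09 to 1.10) in high-scoring than in other persister cells. Of these stress-response genes GDF15 alone was called higher, and the cells are named here by their score and not as a class with a stronger stress response.

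The transcription factors of the response were close in both sets. ATF4 mRNA was at 137.7 CPM in high-scoring cells and 133.1 CPM in other persister cells (1.04-fold, with a lower bound of 0.967). CEBPB, a partner of CHOP and ATF4, was at 179.0 CPM in high-scoring and 150.7 CPM in other persister cells (1.19-fold), and CEBPG was 1.12-fold and ATF5 1.18-fold higher. ATF3, an early stress-induced factor, had a level of 71.4 CPM in high-scoring and 81.2 CPM in other persister cells (0.879-fold). NUPR1, a stress-induced chromatin protein, was at 35.05 CPM in high-scoring and 49.4 CPM in other persister cells (0.709-fold), and its ratio ranged from 0.325 to 1.28 over 30 other settings, with 1.14 for the top 5% of cells. None of the 7 measured factors passed 1.5-fold.

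Among the other ATF4 and CHOP targets, GDF15 alone passed 1.5-fold. GDF15, a secreted cytokine of stressed tissue on chromosome 19 (18374731 to 18389176), was at 136.7 CPM in high-scoring cells, 64.6 CPM in other persister cells and 2.67 CPM in parental cells (2.12-fold between persister sets, 1.97 to 2.27). In cells chosen by 1 part of the UMIs, the other part gave 132.0 CPM in chosen cells and 64.65 CPM in the rest (2.04-fold, 1.84 to 2.26), so the GDF15 gap was almost as large when the cells were chosen from fewer UMIs. Its UMIs were unevenly spread: 6 high-scoring cells (1%) held 26.8% of them, with up to 70 in 1 cell, and without the top 1% of cells in each set the ratio was 1.93. In cells thinned to 5000 UMIs, GDF15 was detected in 23.9% of high-scoring cells (20.5 to 27.5) and 17.7% of other persister cells (16.7 to 18.8). Without thinning these shares were 35.1% in high-scoring and 31.5% in other persister cells, and 5.00% in 180 barcodes with T cell markers, whose median was 3678 UMIs.

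The other targets had ratios of at most 1.39. BEX2 was at 52.5 CPM in high-scoring and 37.9 CPM in other persister cells (1.39-fold). SLFN5 was at 248.6 CPM in high-scoring and 187.7 CPM in other persister cells (1.33-fold). The autophagy genes MAP1LC3B, which coats autophagosomes, and SQSTM1, a cargo receptor, were 1.30-fold (781.2 CPM in high-scoring, 598.9 CPM in other persister cells) and 1.26-fold (1401 CPM in high-scoring, 1108 CPM in other persister cells) higher. TNFRSF10B, the death receptor DR5 and a known CHOP target, was at 50.3 CPM in high-scoring and 39.1 CPM in other persister cells (1.29-fold). PPP1R15A (GADD34), which brings a phosphatase to eIF2, was 1.16-fold and DDIT4, a restraint on mTORC1, 1.14-fold higher. STC2, a secreted stress protein, was at 22.7 CPM in high-scoring and 30.4 CPM in other persister cells (0.746-fold). Of 23 measured targets, 17 had a ratio above 1 and 12 an interval wholly above 1.

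Amino acid supply genes differed less between the sets than GDF15 did. None of 20 tRNA synthetases passed 1.5-fold, and their summed level was 6090 CPM in high-scoring cells, 5662 CPM in other persister cells and 2535 CPM in parental cells (1.08-fold between persister sets). Of the 20, 9 had an interval wholly above 1 and 0 wholly below. WARS, the tryptophan enzyme that interferon-gamma also induces, was at 2178 CPM in high-scoring and 1928 CPM in other persister cells (1.13-fold). None of 16 measured synthesis enzymes passed it either: PSAT1 of the serine pathway was at 211.0 CPM in high-scoring and 214.8 CPM in other persister cells (0.983-fold), and PHGDH, the first enzyme of that pathway, was 1.10-fold. SLC7A11, which imports cystine, was at 65.9 CPM in high-scoring and 53.3 CPM in other persister cells (1.24-fold). SLC7A6 was at 6.40 CPM in high-scoring cells, 10.4 CPM in other persister cells and 17.7 CPM in parental cells (0.616-fold). The median log2 difference was 0.0090 over the 11 measured transporters.

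Upstream and in the endoplasmic reticulum the differences were small. None of 18 measured genes of the eIF2 pathway passed 1.5-fold (median log2 difference 0.0092), and EIF2AK4 (GCN2), the kinase that senses uncharged tRNA, was at 98.8 CPM in high-scoring and 120.6 CPM in other persister cells (0.819-fold). None of 24 measured chaperones and unfolded-protein genes passed it. HSPA5 (BiP), the main chaperone there, was at 854.5 CPM in high-scoring and 693.3 CPM in other persister cells (1.23-fold, 18 of the 24 above 1).

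**Figure D3:**
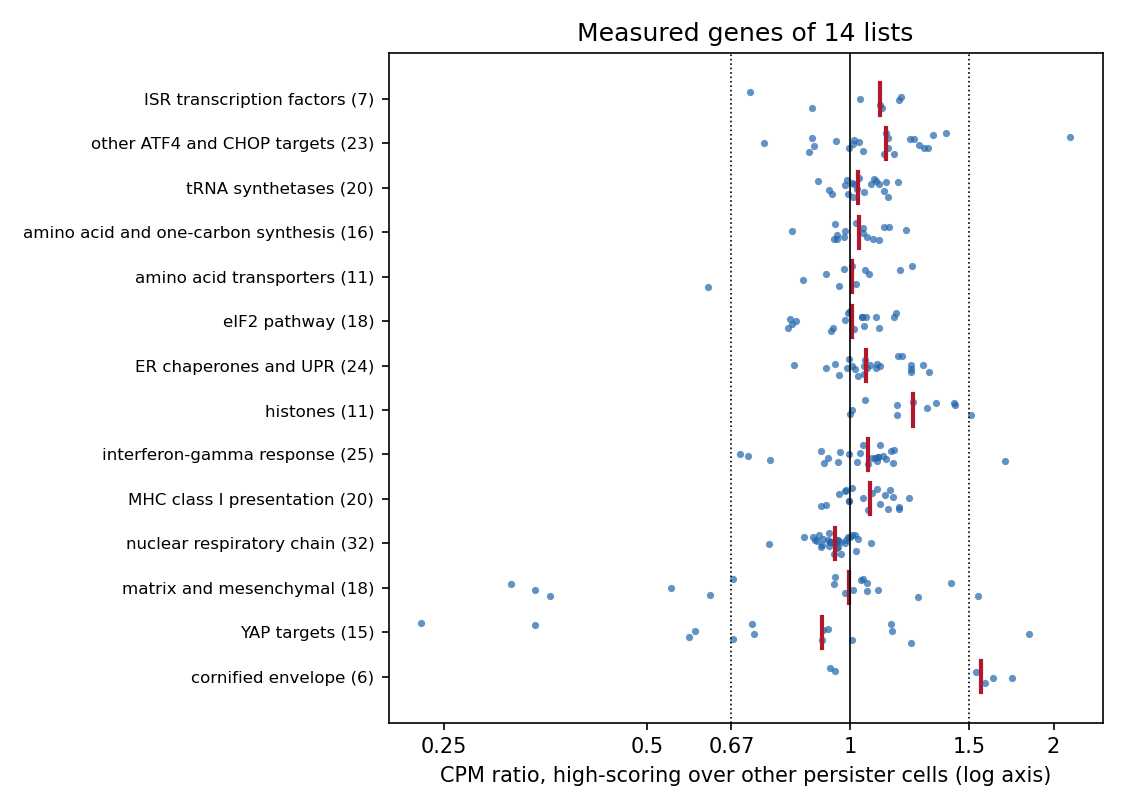
CPM ratio between high-scoring and other persister cells (horizontal axis, logarithmic) for the measured genes of 14 lists, 1 point per gene, with the number of genes in brackets and the list median as a red bar. Dotted lines mark 1.5-fold in each direction. In the stress-response lists GDF15 alone lies past the upper line and SLC7A6 alone past the lower one.

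The 15 genes with the largest ratios at 20 CPM or more in either persister set, GDF15 among them, were all lower in parental cells than in either persister set. EGR1, an immediate-early transcription factor, was at 108.4 CPM in high-scoring cells, 62.7 CPM in other persister cells and 2.51 CPM in parental cells (1.73-fold, with a lower bound of 1.60). In thinned cells it was detected in 35.5% of high-scoring (31.6 to 39.5) and 22.6% of other persister cells (21.5 to 23.8), against 12.8% of the 180 barcodes with T cell markers at their own depth. FOS, its partner among immediate-early genes, was 1.61-fold higher (17.7 CPM in high-scoring, 11.04 CPM in other persister cells). ACPP, a phosphatase, was at 92.9 CPM in high-scoring, 53.5 CPM in other persister and 0.267 CPM in parental cells (1.74-fold). NUAK2, an AMPK-related kinase, was at 22.1 CPM in high-scoring and 12.01 CPM in other persister cells (1.84-fold).

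LPAR6, a receptor for lysophosphatidic acid on chromosome 13 (48389567 to 48444704), had the largest ratio of these genes, 2.26 (1.95 to 2.60), at 33.7 CPM in high-scoring cells, 14.95 CPM in other persister cells and 1.60 CPM in parental cells. That ratio rested on a few cells: 6 high-scoring cells held 47.8% of the UMIs, and without the top 1% of each set it was 1.62. In cells thinned to 5000 UMIs, LPAR6 was detected in 8.24% of high-scoring (6.15 to 10.7) and 6.08% of other persister cells (5.45 to 6.75). The 180 barcodes with T cell markers had LPAR6 in 10.0% (6.04 to 15.3) at their own depth. That depth, a median of 3678 UMIs, was nearer to that of the thinned cells. Without thinning the share was 13.8% in high-scoring cells (11.1 to 16.8) and 13.2% in other persister cells (12.3 to 14.1). FGFBP2, a secreted protein known from cytotoxic lymphocytes, was at 14.55 CPM in high-scoring and 6.68 CPM in other persister cells (2.18-fold). It is named after its value was seen, since it lies under 20 CPM. Of the 55 high-scoring cells with an FGFBP2 UMI, 4 (7.27%) had a UMI of any of 25 T cell and cytotoxic markers, against 16.1% of all high-scoring cells.

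Genes of the skin's cornified layer and of glia were among the higher ones. The lists of these 2 groups were drawn up after the values were seen, so their counts are a description. SPRR2D, a crosslinked envelope protein, was at 715.2 CPM in high-scoring, 451.8 CPM in other persister and 5.07 CPM in parental cells (1.58-fold), though reads of the near-identical SPRR2 genes may be split among copies. LYPD3, a surface protein of keratinocytes, was at 69.96 CPM in high-scoring, 40.3 CPM in other persister and 3.97 CPM in parental cells (1.74-fold). With PRR9 (1.63-fold) and the desmosome gene DSP (1.54-fold), 4 of 6 measured cornified-layer genes were called higher, against 0.646% of all measured genes. PRR9 came from 13 high-scoring cells. GAP43, a growth-cone protein, was at 31.85 CPM in high-scoring, 18.3 CPM in other persister and 1.34 CPM in parental cells (1.74-fold), and PTPRZ1 (1.59-fold), a receptor phosphatase of glia, and APOD (1.58-fold), a lipid carrier, make 3 of 10 measured glial and neural genes called higher, against the same 0.646%.

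TIMP1, an inhibitor of matrix proteases, was also called higher. It was at 11550 CPM in high-scoring, 7459 CPM in other persister and 357.5 CPM in parental cells (1.55-fold, with a lower bound of 1.54). It was found in all 595 high-scoring cells and in 99.8% of other persister cells. In the 180 barcodes with T cell markers the share was 72.2% at their own depth. In the part of the UMIs not used to choose, it was at 10720 CPM in chosen cells and 7555 CPM in the rest (1.42-fold, 1.40 to 1.43). AREG, a ligand of the EGF receptor, stayed just under the limit at 390.8 CPM in high-scoring, 262.8 CPM in other persister and 12.7 CPM in parental cells (1.49-fold).

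**Figure D4:**
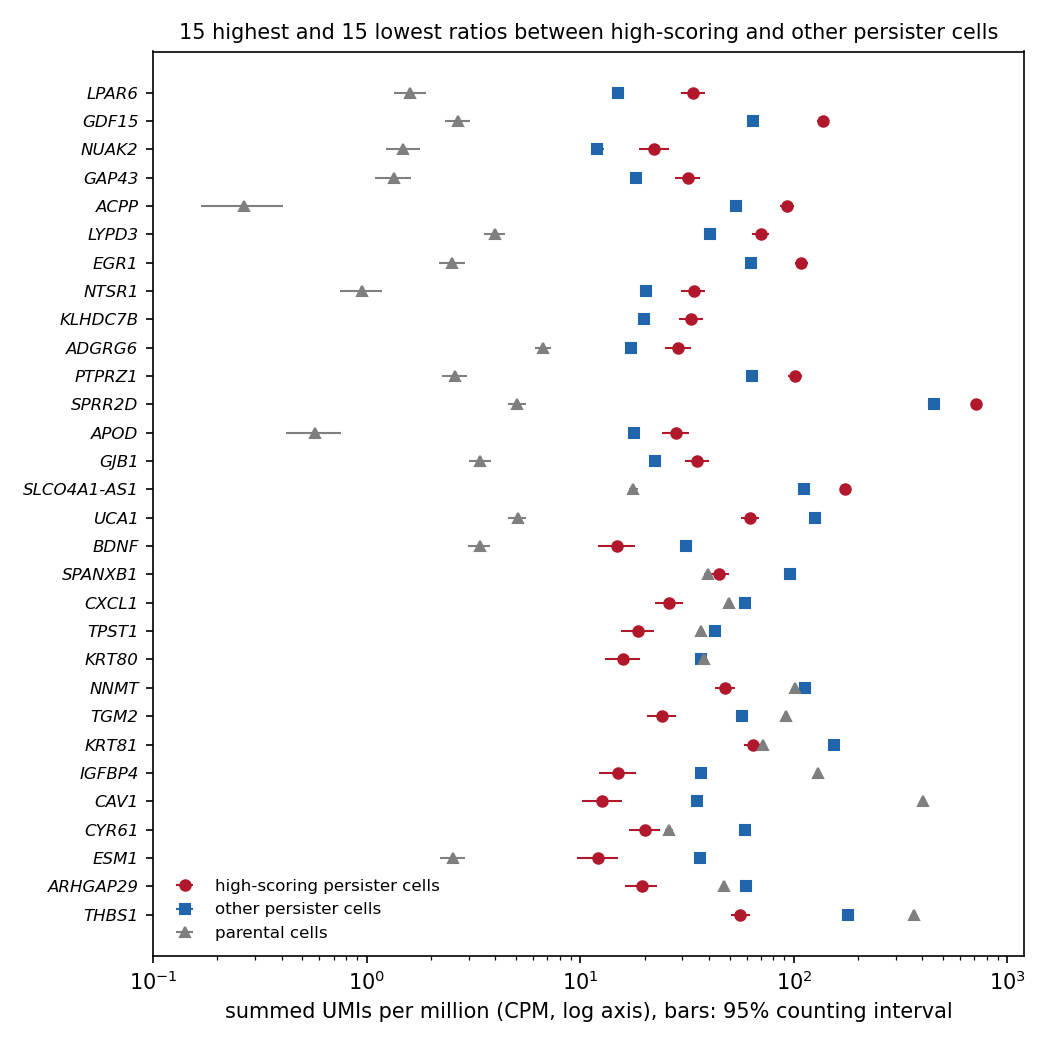
Summed level (horizontal axis, CPM, logarithmic) of the 15 genes with the highest and the 15 with the lowest ratio at 20 CPM or more, in high-scoring persister cells (red circles), other persister cells (blue squares) and parental cells (grey triangles), with 95% counting intervals. KLHDC7B has no UMI in parental cells and so no grey point. The upper 15 genes are all lower in parental than in persister cells, while THBS1, CAV1, IGFBP4, TGM2 and KRT80 are higher in parental cells than in either persister set. For KRT80 the intervals of parental and other persister cells overlap.

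At 20 CPM or more in either persister set, THBS1, ARHGAP29, ESM1, CYR61 and CAV1 had the 5 lowest ratios, 0.315 to 0.359. THBS1, a matrix glycoprotein on chromosome 15 (39581079 to 39599466), was at 56.1 CPM in high-scoring cells, 178.5 CPM in other persister cells and 365.1 CPM in parental cells (0.315-fold between persister sets, with a lower bound of 0.284). In the part of the UMIs not used to choose, it was at 64.1 CPM in chosen cells and 176.0 CPM in the rest (0.364-fold, 0.317 to 0.417). Thinned cells had a THBS1 UMI in 14.8% of the high-scoring set (12.03 to 17.9) and 33.98% of the other persister cells (32.7 to 35.3). In the 180 barcodes with T cell markers the share was 12.8% at their own depth, a median of 3678 UMIs. CYR61, a matrix protein and target of YAP, was at 20.1 CPM in high-scoring, 58.9 CPM in other persister and 25.95 CPM in parental cells (0.341-fold). CAV1, the coat protein of caveolae, was at 12.65 CPM in high-scoring, 35.2 CPM in other persister and 402.2 CPM in parental cells (0.359-fold). ANKRD1, a further YAP target, was at 3.78 CPM in high-scoring and 16.3 CPM in other persister cells (0.232-fold), from 13 high-scoring cells. In the part of the UMIs not used to choose, CYR61 was at 27.7 CPM in chosen cells and 59.2 CPM in the rest (0.468-fold, 0.378 to 0.575). CAV1 was at 17.04 CPM in chosen cells and 34.75 CPM in the rest there (0.490-fold, 0.371 to 0.637). ANKRD1 was at 8.95 CPM in chosen cells and 15.9 CPM in the rest (0.563-fold, 0.379 to 0.809), a smaller gap than in the full counts.

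Of 18 measured matrix and mesenchymal genes, 5 were at least 1.5-fold lower: THBS1, CYR61, CAV1, the gelatinase MMP2 (14.1 CPM in high-scoring, 26.0 CPM in other persister cells) and TPM1, a tropomyosin (80.9 CPM in high-scoring, 130.5 CPM in other persister cells), against 1.21% of all measured genes. In the same list TIMP1 was called higher, 9 of the 18 had a ratio above 1 and the median log2 difference was -0.0041. The next 2 lists were drawn up after the values were seen, so their counts and medians are a description. Among 15 measured YAP targets, ANKRD1, CYR61, AMOTL2 (0.578-fold) and CRIM1 (0.590-fold) were lower and NUAK2 higher, and 10 lay within 1.5-fold. Among 22 measured actin and adhesion genes, CAV1, TPM1, LIMA1 (0.538-fold) and LIMCH1 (0.539-fold) were among the lower ones. None of the 22 was higher, and 17 lay within 1.5-fold. Of all measured genes 1.21% were called lower and 0.646% higher. The list medians were -0.14 log2 for YAP targets and -0.050 log2 for actin and adhesion, against 0.00077 for all measured genes.

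Others of the 15 lowest genes were enzymes, keratins and secreted factors. NNMT, which methylates nicotinamide, was at 47.7 CPM in high-scoring, 113.0 CPM in other persister and 100.9 CPM in parental cells (0.422-fold). TGM2, a protein crosslinker, was at 24.0 CPM in high-scoring, 57.2 CPM in other persister and 91.7 CPM in parental cells (0.419-fold). The keratin KRT81 was 0.416-fold and the keratin KRT80 0.431-fold, where KRT81 shares much of its sequence with related hair keratins. ARHGAP29, a GTPase-activating protein, was at 19.3 CPM in high-scoring and 59.75 CPM in other persister cells (0.324-fold). BDNF, a neurotrophin, was at 14.8 CPM in high-scoring, 31.2 CPM in other persister and 3.37 CPM in parental cells (0.475-fold), and the long noncoding RNA UCA1 was at 62.25 CPM in high-scoring, 125.6 CPM in other persister and 5.09 CPM in parental cells (0.496-fold).

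The summed level of 16 inflammatory cytokines was 767.1 CPM in high-scoring, 1004 CPM in other persister and 101.2 CPM in parental cells, and 2 of 7 measured were at least 1.5-fold lower: the neutrophil chemokine CXCL1 (26.0 CPM in high-scoring, 59.2 CPM in other persister cells) and IL24 (347.8 CPM in high-scoring, 540.5 CPM in other persister cells), against 1.21% of all measured genes. Of the 7, 3 had a ratio above 1, and IL24 made up most of the difference between the sums. CXCL10, an interferon-induced chemokine for T cells, was at 49.6 CPM in high-scoring and 72.25 CPM in other persister cells (0.687-fold), while IRF1, the interferon-gamma factor, was 1.10-fold. Of 25 measured interferon-gamma genes, 16 had a ratio above 1, against 3811 of all 7587 measured genes. In that list 1 gene was called higher, against 0.646% of all measured genes. It was SOCS1, a feedback inhibitor (12.8 CPM in high-scoring, 7.55 CPM in other persister cells). None of 20 MHC class I presentation genes passed 1.5-fold, 13 had a ratio above 1, and their sum was 17320 CPM in high-scoring cells, 15480 CPM in other persister cells and 2609 CPM in parental cells. Of 13 measured MHC class II presentation genes, 6 had a ratio above 1. Values of single HLA genes are uncertain, since reads of near-identical genes may be shared. The checkpoint ligand CD274 (PD-L1) was at 16.7 CPM in high-scoring and 21.35 CPM in other persister cells (0.783-fold).

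Growth signalling genes went both ways. DUSP6, a feedback phosphatase on ERK, was at 388.8 CPM in high-scoring and 292.3 CPM in other persister cells (1.33-fold). EPHA2, a receptor kinase, was at 36.8 CPM in high-scoring and 71.7 CPM in other persister cells (0.513-fold), and HBEGF, an EGF receptor ligand, was at 12.5 CPM in high-scoring and 23.1 CPM in other persister cells (0.542-fold). MYC was at 5.67 CPM in high-scoring and 11.6 CPM in other persister cells (0.487-fold). CDKN1A (p21) was at 137.0 CPM in high-scoring and 105.6 CPM in other persister cells (1.30-fold), and 7 of 12 measured cell cycle inhibitors had an interval wholly above 1 (median log2 difference 0.30), against 1091 of 7587 measured genes. MKI67, a proliferation marker, was 1.11-fold. S phase genes summed to 1554 CPM in high-scoring and 1630 CPM in other persister cells. Of 34 measured, 3 had an interval wholly above 1 and 11 wholly below. In that list 2 were called lower, against 1.21% of all measured genes. UNG, which removes uracil from DNA, was 0.376-fold, and UHRF1, which maintains DNA methylation, was 0.639-fold. G2 and M phase genes summed to 4994 CPM in high-scoring and 4665 CPM in other persister cells, with none of 51 past 1.5-fold. Of the 51, 35 had a ratio above 1, 18 an interval wholly above 1 and 2 an interval wholly below. For both lists, the interval counts stand beside 1091 above and 1203 below among all 7587 measured genes.

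Of 32 measured nuclear genes of the respiratory chain, 5 had a ratio above 1 and 17 an interval wholly below 1, against 1203 of all 7587 measured genes, with sums of 14280 CPM in high-scoring and 15230 CPM in other persister cells. The mitochondrially encoded genes summed to 76560 CPM in high-scoring and 76700 CPM in other persister cells. Of 11 measured histone genes, 10 were above 1 and 9 had an interval wholly above 1, against 1091 of the 7587. HIST2H2AC was at 135.3 CPM in high-scoring and 94.5 CPM in other persister cells (1.43-fold), though near-identical histone genes may share reads.

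The persister cells were also put in 10 equal bins by score. The summed level of the 93 stress-response genes was 12210 CPM in the lowest bin and 14660 CPM in the highest, and was higher in each bin than in the one before it. In the lowest and highest bin, tRNA synthetases were at 5229 and 6090 CPM (8 of 9 steps upward). Amino acid transporters were at 1201 and 1324 CPM (6 of 9), and synthesis enzymes at 1240 and 1435 CPM (5 of 9). GDF15 was at 36.8 CPM in the lowest bin, 74.0 CPM in the eighth, 107.1 CPM in the ninth and 136.7 CPM in the highest, and its level was higher than in the bin before at 8 of 9 steps. EGR1 was at 44.0 CPM in the lowest bin and 108.4 CPM in the highest, with 7 of 9 steps upward. TIMP1 was at 6864 CPM in the lowest bin, 6002 CPM in the third, 8189 CPM in the eighth and 11550 CPM in the highest, with 6 of 9 steps upward. GAP43 was at 22.35 CPM in the lowest bin, 14.84 to 18.71 CPM in bins 2 to 8, 24.61 CPM in the ninth and 31.85 CPM in the highest. THBS1 was at 257.4 CPM in the lowest bin, 264.2 CPM in the second, 159.2 CPM in the fifth and 56.1 CPM in the highest. ATF4 mRNA lay between 124.4 and 139.7 CPM in every bin. Of the 15 genes with the lowest ratios, 14 (all but BDNF) were lower in the lowest bin than in the bin after it, so their levels did not fall along the whole range of scores. The lowest bin also had the highest level of T cell and cytotoxic markers, 243 CPM, against 22.01 to 64.2 CPM in the other bins. The part of those markers in the lowest bin's values was not tested.

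**Figure D5:**
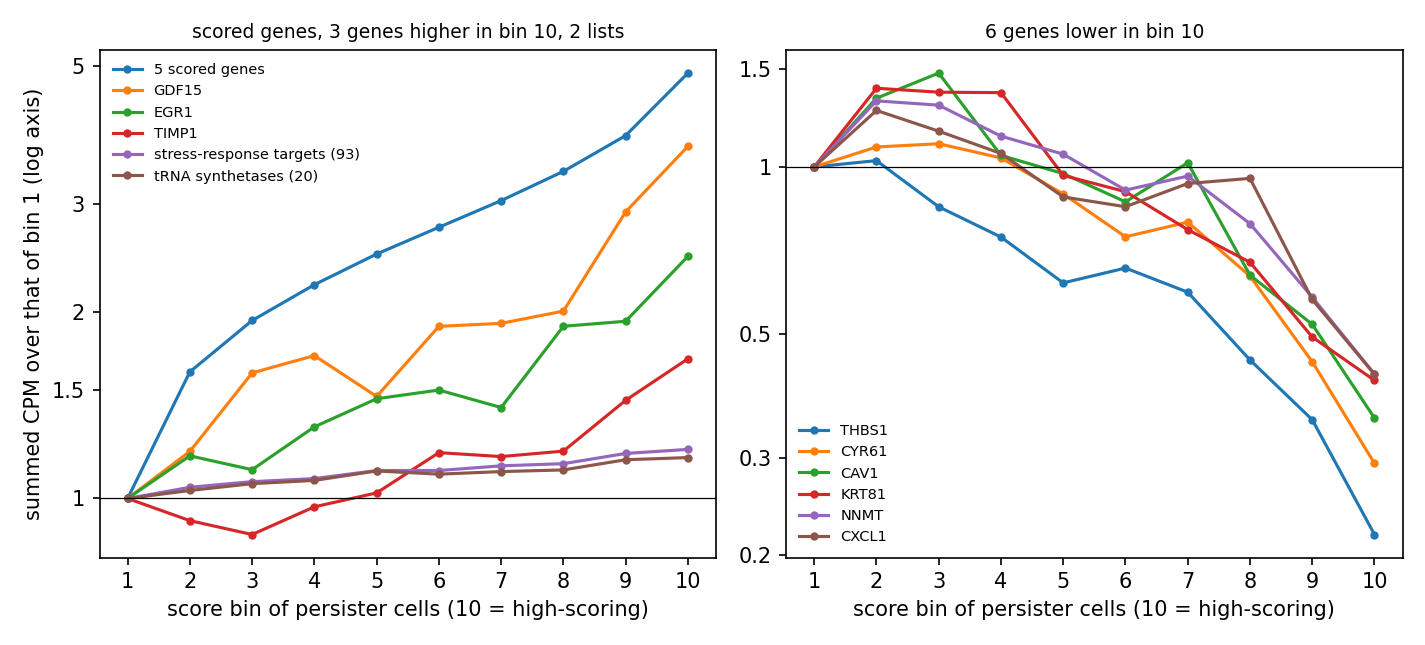
Summed CPM in 10 equal bins of persister cells by score, divided by the value in bin 1 (vertical axis, logarithmic), for the 5 scored genes, GDF15, EGR1, TIMP1 and 2 lists (left) and for 6 genes lower in bin 10 (right). GDF15 is at 36.8 CPM in bin 1 and 136.7 CPM in bin 10, while the 93 stress-response genes are at 12210 CPM and 14660 CPM, and THBS1 is at 257.4 CPM and 56.1 CPM.

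Depth, RNA quality and T cell RNA were compared between the sets. The persister library held 7144 barcodes and 80802724 UMIs and the parental library 10751 barcodes and 88214007 UMIs, with 38 barcodes in both, of which 3 (0.504%) were high-scoring cells. High-scoring cells had a median of 10683 UMIs and other persister cells 12116. They made up 15.3% of the persister cells in the lowest of 10 bins by UMIs and 4.37% of those in the highest bin. Choosing the top 10% within each bin of UMIs gave 45 genes higher and 89 lower, of which 29 of the higher and 74 of the lower genes were among the 49 and 92. With at least 10000 UMIs per cell, 78 were higher and 138 lower, of which 37 and 83 were among the 49 and 92. With the score taken from cells thinned to 5000 UMIs, 10 were higher and 31 lower, of which 5 and 29 were among them. Mitochondrial UMIs were a median of 7.83% in high-scoring and 7.72% in other persister cells. The nuclear RNA MALAT1 was at 19480 CPM in high-scoring, 15200 CPM in other persister and 8661 CPM in parental cells (1.28-fold between persister sets), and the nuclear RNA NEAT1 was 1.25-fold higher. The part of nuclear RNA in the other differences was not tested. Without barcodes found in both libraries, 48 genes were higher and 93 lower. The 25 T cell and cytotoxic markers summed to 37.5 CPM in high-scoring cells, 59.3 CPM in other persister cells and 4.88 CPM in parental cells, 7 of them had no UMI in high-scoring cells, and at least 2 UMIs of them were found in 17 high-scoring cells (2.86%) and 177 other persister cells (3.31%). Without such cells 51 genes were higher and 90 lower, and 47 of the higher and 83 of the lower were among the 49 and 92. The melanoma marker SOX10 was at 211.0 CPM in high-scoring, 177.2 CPM in other persister and 99.3 CPM in parental cells, while the pigment markers TYR, MLANA and PMEL had no UMI in high-scoring cells and 0, 1 and 11 UMIs in other persister cells. MITF, the melanocyte transcription factor, was at 4.07 CPM in high-scoring cells (28 UMIs), 7.13 CPM in other persister cells and 13.8 CPM in parental cells (0.571-fold between persister sets, 0.376 to 0.836), and was not counted as measured.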

How the data were processed

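The data are single-cell RNA counts of 2 libraries, 1 per group, from the 10x Chromium 3' v3 chemistry, per the labels' protocols. The authors deposited raw UMI counts for each gene in each barcode: all are whole numbers, and the matrix file headers give integers. Cell Ranger 3.1.0 and GRCh38 are named in the submitters' processing notes, and no source used here gives the annotation release. The authors' tables held 33538 genes.

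Cells, score and calls are as stated above. No doublet caller was run, so doublets were not removed. UMIs were summed over the cells of a set, since cells of 1 library are not replicates, and ratios of CPM have exact conditional Poisson intervals (95%, counting error only). Shares of cells have exact Clopper-Pearson intervals. The log2 differences use a pseudocount of 1 CPM, which understates those of low genes. The sums and calls were tested on simulated sums of counts with known changes. That simulation had no single cells, no choice by score and no uneven spread of UMIs, so it does not cover these. Positions are from GENCODE 29.

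The members and gene lists were chosen with earlier results of these data known, and 4 of 49 lists were added after the values here were seen. Named were every measured stress-response gene, the 15 highest and 15 lowest ratios at 20 CPM or more, up to 3 genes of each other list and a few markers. Of these, the text gives the ones whose group it describes. A gene of the actin and adhesion list is not reported here. Python 3.11.15, numpy 2.4.6, scipy 1.17.1, pandas 2.3.3 and edgeR 4.0.16 (TMM scaling, an alternative) were used.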

Additional observations from a re-analysis of the deposited data

How the results depend on the processing

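No paired analysis was possible because each group has 1 library. The counts of genes higher and lower in high-scoring cells, given in that order, depended on where the limits were set. They were 89 and 157 for the top 5% of cells, 27 (higher) for the top 20%, 78 (higher) with at least 10000 UMIs per cell, 10 and 31 with the score from thinned cells, 28 and 60 with the scored genes weighted equally, and 81 and 156 in cells whose G2 and M phase score was at or under its median. They were 107 and 183 at 5 CPM, 10 and 28 at 50 CPM, and 2312 and 6463 with no low-count filter. A score without ASNS gave 30 higher. DDIT3 alone gave 30 higher, CHAC1 alone 4 and 12, TRIB3 alone 28 and 12, SESN2 alone 11 and 15, and ASNS alone 30 higher. Against the bottom 10% of cells, a setting chosen after seeing the data, they were 279 and 239, and the cause of these shifts was not tested. Among stress-response genes, the 1 called higher became 2 with no low-count filter (FGF21 added, 3 UMIs in high-scoring and 19 in other persister cells), 0 for CHAC1, TRIB3, SESN2 or ASNS alone, and 6 against the bottom 10% (GDF15, ADM2, MAP1LC3B, BEX2, SLFN5 and GOT1). With cells chosen by 1 part of the UMIs, the other part gave 61 and 104, of which 17 of the higher and 52 of the lower were among the 49 and 92.

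Of genes past 1.5-fold in the setting reported above, these had ratios of high-scoring over other persister cells that turned round, the cause of which was not tested. With CHAC1 alone they were 0.987 for TRIB3, 0.832 for ACPP, 0.882 for LYPD3, 0.945 for PTPRZ1, 0.967 for APOD, 0.936 for GJB1, 0.985 for TIMP1, 0.856 for NDRG1, 0.870 for HIST1H4H and 0.525 for PRR9, and 1.04 for THBS1, 1.06 for CAV1, 1.21 for IGFBP4, 1.14 for KRT81, 1.06 for TGM2, 1.08 for SPANXB1, 1.22 for SLC7A6, 1.09 for MYC, 1.03 for LIMCH1 and 1.27 for IL6. With TRIB3 alone they were 1.02 for CAV1, 1.10 for CXCL1, 0.904 for SOCS1, 1.011 for MYC, 1.16 for UHRF1, 0.460 for PRR9 and 1.007 for MITF. With SESN2 alone they were 1.04 for ESM1, 1.17 for UHRF1, 1.10 for MITF and 1.20 for IL6. IL6 (0.320 in the setting above) was not counted as measured, and 6 high-scoring cells held 62.5% of that set's IL6 UMIs. Among named genes within 1.5-fold, for example, NUPR1 (0.709) was 1.14 for the top 5% and 1.28 for DDIT3 alone, ATF5 (1.18) was 0.955 for the top 5% and 0.912 without DDIT3, AREG (1.49) was 0.800 and CDKN1A (1.30) 0.957 for CHAC1 alone, and STC2 (0.746) was 1.07 for TRIB3 alone. PRR9 was 0.549 in cells with a G2 and M phase score at or under its median and 0.671 without ASNS. Over 30 settings the GDF15 ratio was 1.048 to 3.71 and passed 1.5 in 26, and the THBS1 ratio was 0.218 to 1.04 and passed 1.5-fold downward in 28. Depth limits the choice of cells: a score rests on a median of 16 UMIs in high-scoring cells.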

Other observations

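In the parental library 9 of 9094 cells (0.0990%, 0.0453 to 0.188) reached the limit of 13.2, with scores of 14.4 to 45.8 and 2.64 to 3.75% mitochondrial UMIs. Their DDIT3 level was 1558 CPM (1305 to 1845), against 17.2 CPM in the parental cells below the limit. DDIT3 is a scored gene, so that gap follows from the choice of these cells. The early stress gene ATF3 was at 720.8 CPM in them and 2.62 CPM below the limit. EGR1 was at 662.7 CPM in them and 1.82 CPM below it, PPP1R15A at 581.3 CPM in them and 37.0 CPM below it, and tRNA synthetases together at 4674 CPM in them and 2532 CPM below it. In high-scoring over other persister cells the ATF3 ratio was 0.879. GDF15 was at 69.8 CPM in them (6 UMIs) and 2.60 CPM below the limit, and TIMP1 at 418.6 CPM in them and 357.5 CPM below it. These are values of 9 cells of 1 library, and no cause was tested.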
